A study of Rattus norvegicus with 4 samples.

Results

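Kruppel-like factors (KLFs) are transcription factors that bind CACCC and GC-rich boxes through zinc fingers at the end of the protein, while the rest of the protein decides whether a gene is activated or repressed. Several of them respond early to hormones, growth factors or stress, and members with opposite action can compete for the same boxes. In the mouse testis, Klf4 is known from Sertoli cells and from germ cells after meiosis. The members were taken by name from the mRNA table of rat Sertoli cells: Klf2, Klf3, Klf4, Klf5, Klf6, Klf9, Klf10, Klf11, Klf13 and Klf15. Of these 10 genes, 7 were found among 13114 gene names, each with 1 transcript, while Klf2, Klf6 and Klf15 were not analysed here.

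The cells were primary Sertoli cells, which support germ cells inside the seminiferous tubules, enriched from unweaned Sprague-Dawley pups and passaged in culture. The treated group of 2 libraries came from cells given 4-nonylphenol (4-NP), an alkylphenol with estrogen-like activity that is formed from surfactants, for 24 h. The other 2 libraries came from control cells at the same time. The dose is not in the sample labels. Whether each library had its own culture is not in the labels, and the p-values given here cover the spread among these 4 libraries alone, which may be technical.

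Levels are FPKM, the authors' fragment counts scaled to transcript length and to the mapped fragments of the library, so they are per length and can be compared between genes. Differences were tested with limma on log2(FPKM + 1) for the 8012 genes that averaged 1 FPKM or more across all 4 libraries, and a gene was called at a Benjamini-Hochberg adjusted p under 0.05. The log2 change is 4-NP over control and is smaller than the true change for low genes, while folds are ratios of mean FPKM. Mapped reads were 104 and 96.6 M in the 4-NP libraries, against 116 and 119 M in the control libraries. Of the 7 genes, 5 passed the filter (Klf4, Klf5, Klf9, Klf10 and Klf11), while Klf3 and Klf13 stayed under it.

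The identity of the cultures was checked against marker genes. Of 7 tested Sertoli markers, 7 were lower in 4-NP-treated cells. Over all genes tested 23.1% were lower, a share to set beside each marker count here. With equal medians or a pseudocount of 0.1 or 0.5 the Sertoli marker Wt1 was not called, which left 6. Its call was also lost without 4-NP replicate 1 or either control replicate. Summed over 11 listed markers, the level was 21.3 and 19.0 FPKM in 4-NP libraries, against 145 and 135 FPKM in control libraries. The defining Sertoli genes Sox9, Gata4 and Fshr were under 1 FPKM in all 4 libraries. Peritubular myoid cells are the contractile cells around the tubules, and 8 of 8 of their tested markers were lower, with sums of 660 and 648 FPKM in 4-NP libraries against 7893 and 7978 FPKM in control libraries. The myoid sum was therefore far above the Sertoli sum in every library. The lists hold different genes, and the myoid marker Tagln alone gave 426 and 412 FPKM in 4-NP libraries and 3968 and 3901 FPKM in control libraries. These sums do not measure shares of cells. Markers of endothelial, macrophage and germ cells were low, with sums of at most 6.02 FPKM in 4-NP libraries and at most 23.1 FPKM in control libraries. All tested genes of these 3 lists (2, 2 and 4) were lower, but each list lost a call in some of the fits that left out 1 library. This was so without 4-NP replicate 2 for endothelial and macrophage genes, without 4-NP replicate 1 for macrophage genes and without either control replicate for germ cell genes. Of the Leydig cell list only Star, which carries cholesterol into mitochondria, was tested, and it was 2.61-fold higher. Cyp11a1, which makes the first steroid from cholesterol, moved the other way, with 0.0883 and 0.142 FPKM in 4-NP libraries against 1.152 and 1.05 FPKM in control libraries. It was under the filter and was lower in the fit without it (limma adjusted p = 0.00762). The defining Leydig gene Cyp17a1 was at or near 0 FPKM. In these bulk samples fewer cells of a type and less RNA per cell cannot be told apart, and the part of these shifts in the results that follow was not tested.

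Promoter sequences from RefSeq (build GRCr8) were matched for 7 of the 10 names, in windows of 300 bases that run from 250 before to 50 after a start site. Klf2, Klf10 and Klf13 had no entry. The windows of Klf5, Klf6 and Klf9 began at the outermost start of the gene as RefSeq lists it. The starts used for Klf4, Klf3 and Klf15 lay 590, 8592 and 363 bases inside the gene span, so that their whole windows were inside the genes. The Klf11 window was partly inside its gene, with 186 of 300 bases. The bases before the start are therefore shown for Klf9, which was lower in 4-NP-treated cells, and for Klf5, whose mean level was lower without passing the test. Capitals mark the CACCC box (CACCC), the CCAAT box (CCAAT) and the AP-1 motif (TGANTCA), each searched on both strands. N stands for any base, which was A in the Klf9 match.
Klf9 (chr1:230126396-230126645, + strand): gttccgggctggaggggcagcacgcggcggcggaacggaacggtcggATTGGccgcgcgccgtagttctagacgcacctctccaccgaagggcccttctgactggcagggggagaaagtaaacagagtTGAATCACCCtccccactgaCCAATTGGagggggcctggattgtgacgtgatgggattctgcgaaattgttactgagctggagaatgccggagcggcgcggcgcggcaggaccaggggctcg
Klf5 (chr15:82471831-82472080, + strand): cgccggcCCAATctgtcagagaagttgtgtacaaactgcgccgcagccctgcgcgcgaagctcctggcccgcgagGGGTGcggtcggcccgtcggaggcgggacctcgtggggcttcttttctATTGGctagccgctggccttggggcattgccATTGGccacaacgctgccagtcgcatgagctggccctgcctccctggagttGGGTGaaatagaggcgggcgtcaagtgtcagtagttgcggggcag
The Klf9 window held 1 CACCC box, the box that KLF proteins bind, and 1 AP-1 motif, and these overlapped in a single run of capitals that starts 122 bases before the start site. It also held 3 CCAAT boxes, of which 2 overlapped in the palindrome read as CCAATTGG. The Klf5 window held 2 CACCC boxes and 3 CCAAT boxes but no AP-1 motif. Over all 27457 windows of this length, 55.1% held a CACCC box, 37.7% a CCAAT box and 7.33% an AP-1 motif. Neither window held the GC box (GGGCGG), the cAMP response element (TGACGTCA) or the TATA box (TATAAA), which were found in 34.9%, 1.91% and 14.3% of all windows. A match only describes these letters and is no evidence of binding.

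Of the 5 tested genes, 1 was higher in 4-NP-treated cells and 2 were lower. Klf4 was the gene that rose, and Klf9 and Klf10 were the genes that fell. Over all genes tested the corresponding shares were 24.7% higher and 23.1% lower, so that calls in either direction were common in these libraries. The 4-NP and control libraries did not overlap for any of the 5 tested genes, against 76.4% without overlap among all genes tested, while Klf3 and Klf13 overlapped. The median log2 change over all genes tested was 0.05.

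**Figure D1:**
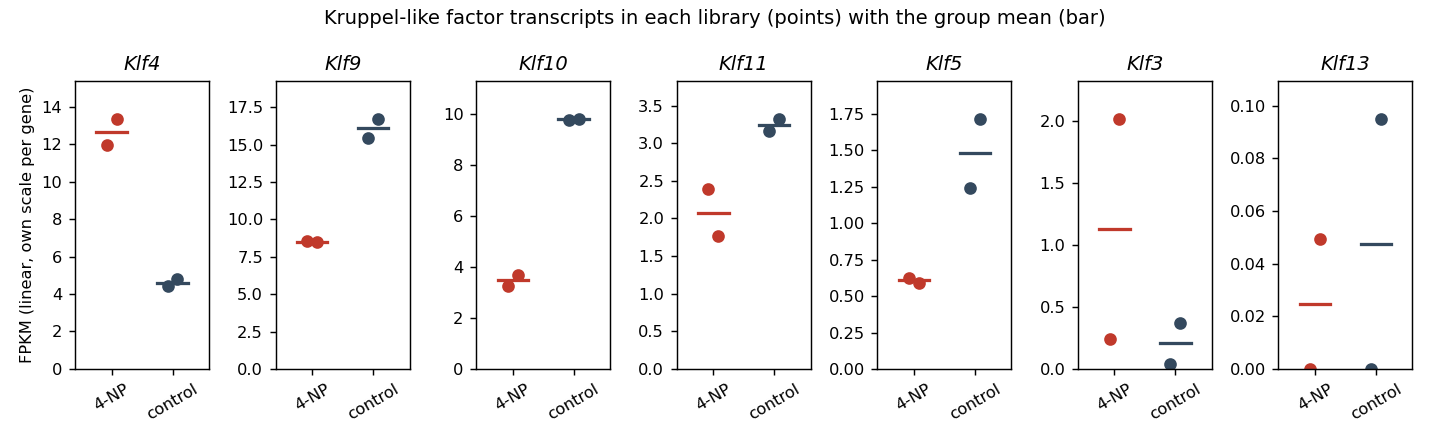
Level of each of the 7 genes in each library in FPKM, on a linear axis that starts at 0 and has its own scale per gene, with 4-NP libraries left of control libraries and a bar at the group mean. Klf4 lies at 11.97 and 13.4 FPKM in 4-NP libraries, above 4.42 and 4.78 FPKM in controls, while Klf9, Klf10, Klf11 and Klf5 lie lower in 4-NP libraries and Klf3 and Klf13 overlap.

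Klf4, which keeps stem cells undifferentiated and halts division in epithelia, was read at 11.97 and 13.4 FPKM in 4-NP-treated cells and at 4.42 and 4.78 FPKM in control cells. Both 4-NP libraries were above both controls, and the gap was much wider than that within either group. The group means were 12.7 ± 0.979 FPKM in 4-NP-treated cells and 4.60 ± 0.252 FPKM in control cells (SD, n = 2), a 2.75-fold difference. The log2 change was 1.29 ± 0.12 (SE, limma adjusted p = 0.00396). A higher log2 change was found in 653 of the 8012 genes. The deposited transcript of Klf4 lies on chromosome 5, minus strand, from 72283313 to 72287669, with 5 exons and 2366 bases. The sources used here do not give the build of the deposited coordinates.

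Klf10, also called TGF-beta-inducible early gene, is a repressor that takes part in the growth arrest caused by TGF-beta. It was read at 3.27 and 3.68 FPKM in 4-NP-treated cells and at 9.78 and 9.82 FPKM in control cells. The controls were nearly equal, and both 4-NP libraries were far below them. Means were 3.48 ± 0.291 FPKM in 4-NP-treated cells and 9.80 ± 0.0299 FPKM in control cells (SD, n = 2), which is 2.82-fold lower. The log2 change was -1.27 ± 0.12 (SE, limma adjusted p = 0.00418), and 1042 genes had a lower change. Its transcript lies on chromosome 7, minus strand, from 77156006 to 77162148, with 4 exons and 2993 bases.

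Klf9, a repressor that thyroid hormone and glucocorticoids induce in many tissues, had 8.53 and 8.50 FPKM in 4-NP-treated cells and 15.5 and 16.7 FPKM in control cells. The 4-NP libraries were almost equal and lay below both controls. Means were 8.51 ± 0.0190 FPKM in 4-NP-treated cells and 16.1 ± 0.894 FPKM in control cells (SD, n = 2), a level 1.89-fold lower. The log2 change was -0.85 ± 0.10 (SE, limma adjusted p = 0.00590). This change is smaller than 1 in size, so Klf9 would not be counted under a rule that also asks for a log2 change beyond 1. Its transcript lies on chromosome 1, plus strand, from 240908483 to 240933198, with 2 exons and 2508 bases.

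Klf11, the closest relative of Klf10 and like it a repressor that recruits Sin3, did not pass the test. It was read at 2.39 and 1.76 FPKM in 4-NP-treated cells and at 3.16 and 3.33 FPKM in control cells. Both 4-NP libraries were below both controls, but they also differed from each other by 1.35-fold. The log2 change was -0.47 ± 0.18 (SE, limma adjusted p = 0.102), with means of 2.08 ± 0.439 FPKM in 4-NP-treated cells and 3.24 ± 0.121 FPKM in control cells (n = 2). The transcript lies on chromosome 6, plus strand, from 43829945 to 43841651.

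Klf5, which promotes division in gut and other epithelia, had 0.626 and 0.588 FPKM in 4-NP-treated cells and 1.24 and 1.72 FPKM in control cells. The groups did not overlap, and the mean was 2.43-fold lower in 4-NP-treated cells. The log2 change was -0.62 ± 0.18 (SE) and missed the threshold (limma adjusted p = 0.0622). Klf5 passed after scaling to equal totals (adjusted p = 0.0485), without the trend term (0.0350) and without control replicate 1 (0.0462). Its transcript lies on chromosome 15, plus strand, from 83707735 to 83722921.

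Klf3, a repressor that acts through the corepressor CtBP, was read at 0.239 and 2.02 FPKM in 4-NP-treated cells and at 0.0428 and 0.371 FPKM in control cells. The groups overlapped, and the high mean in 4-NP-treated cells rests on library 2. Control library 2 was likewise above control library 1, by 8.68-fold, against 8.47-fold between the 4-NP libraries. Without the filter on low values its log2 change was 0.69 ± 0.51 (SE, limma adjusted p = 0.394). Klf13, a regulator of the chemokine gene Ccl5 in T cells, was at or near 0, with 0 and 0.0494 FPKM in 4-NP-treated cells and 0 and 0.0951 FPKM in control cells. The deposited Klf13 transcript is only 602 bases long. No direction can be read for either gene at these levels.

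**Figure D2:**
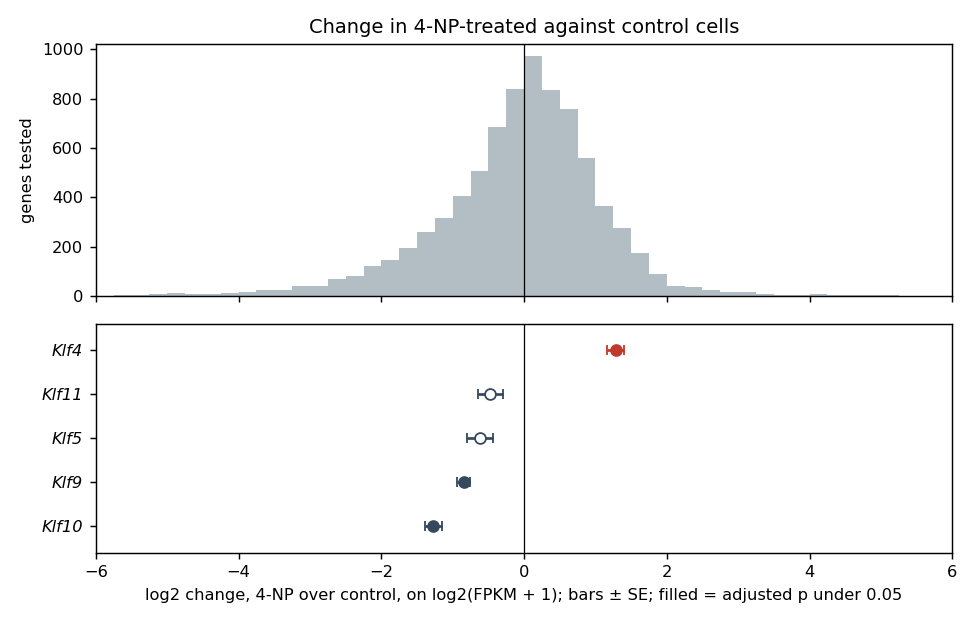
Log2 change of 4-NP over control on the log2(FPKM + 1) scale for all 8012 genes tested (upper panel, number of genes per bin of 0.25) and for the 5 tested genes (lower panel, with SE, filled where the adjusted p was under 0.05). Klf4 at 1.29 and Klf10 at -1.27 stand on opposite sides of 0, and for each of the 5 genes at least 20.9% of the tested genes had a change of larger size.

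The order of levels also differed between the groups. In 4-NP-treated cells Klf4 was the most abundant of the 7 genes, followed by Klf9, Klf10 and Klf11, and none of these neighbours overlapped between libraries. Below them Klf11 overlapped with Klf3 and Klf3 with Klf5, so their order is not resolved. In control cells the order was Klf9, Klf10, Klf4, Klf11, Klf5 and Klf3, with no overlap between neighbours, and only the lowest pair, Klf3 and Klf13, overlapped. Among all gene names, 21.6% had a higher mean level than Klf4 in 4-NP-treated cells, against 39.03% in control cells. For Klf9 this share was 27.6% in 4-NP-treated cells and 17.8% in control cells, and for Klf10 it was 41.0% in 4-NP-treated cells and 25.3% in control cells.

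Within a library the ratio of 2 genes does not depend on the scaling of that library. Klf4 was 1.40 and 1.57 times the level of Klf9 in 4-NP libraries, against 0.286 and 0.285 times in control libraries. Relative to Klf10, Klf4 stood at 3.66 and 3.63 in 4-NP libraries, against 0.452 and 0.487 in control libraries. Klf9 relative to Klf10 moved less, with 2.61 and 2.31 in 4-NP libraries against 1.58 and 1.71 in controls. Klf10 relative to its closest relative Klf11 was 1.37 and 2.09 in 4-NP libraries, against 3.10 and 2.95 in control libraries, so the 4-NP replicates lay well apart. None of these 4 ratios overlapped between the groups, while among single tested genes 76.4% did not overlap. The ratios are built from the member values given above, so they add no separate evidence. No share over other gene pairs was taken.

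Summed over the 7 genes, the level was 27.02 and 29.96 FPKM in 4-NP-treated cells, against 34.1 and 36.8 FPKM in control cells. Klf4 made up 44.3% and 44.6% of this sum in 4-NP libraries, against 13.0% in each control library. Klf9 made up 31.6% and 28.4% in 4-NP libraries, against 45.4% in each control library, and Klf10 made up 12.1% and 12.3% in 4-NP libraries, against 28.7% and 26.6% in control libraries. Without Klf4 the sum was 15.0 and 16.6 FPKM in 4-NP-treated cells and 29.7 and 32.1 FPKM in control cells, a ratio of 0.513. With Klf4 included the ratio of 4-NP-treated over control cells was 0.803.

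**Figure D3:**
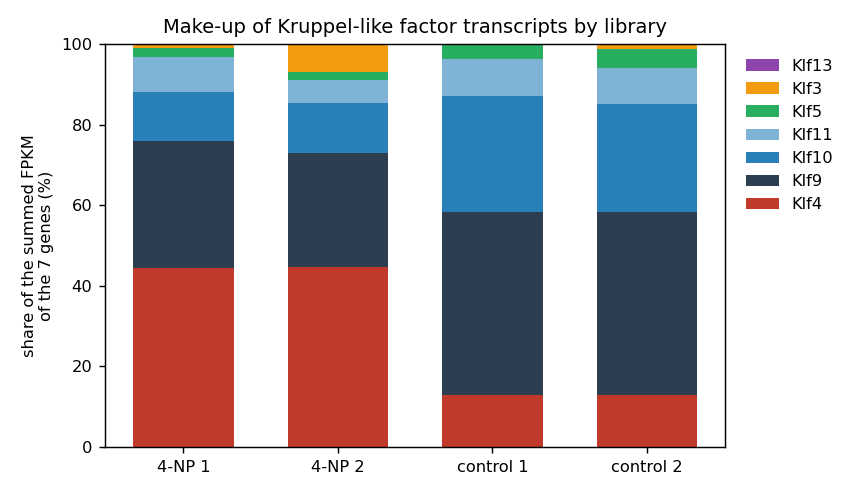
Share of the summed FPKM of the 7 genes that each gene takes in each library, in percent, with the 4-NP libraries left of the control libraries. Klf4 fills 44.3% and 44.6% in the 4-NP libraries and 13.0% in each control, and Klf9 is the largest part in both controls.

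Other genes of the wider family were mostly low. Of 17 further Klf and Sp genes, 9 were found in the table and 2 were tested. Sp1, the ubiquitous activator that binds the same GC-rich boxes, had 13.5 and 15.0 FPKM in 4-NP-treated cells and 8.93 and 9.34 FPKM in control cells, which is 1.56-fold higher. Its log2 change was 0.58 ± 0.10 (SE, limma adjusted p = 0.0175), and the call was lost when any 1 of the 4 libraries was left out. Klf16, another Sin3-binding repressor, had 3.01 and 2.99 FPKM in 4-NP-treated cells and 3.15 and 2.69 FPKM in control cells, so the groups overlapped. The remaining 7 genes, Klf1, Klf7, Klf8, Klf12, Sp2, Sp4 and Sp6, stayed under the mean of 1 FPKM.

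Klf2 and Klf4 are induced in endothelial cells through a kinase route in which the kinases Map3k2 and Map3k3 act on Mek5 (Map2k5), Mek5 on Erk5 (Mapk7) and Erk5 on Mef2 factors. Of 6 tested genes of this route 1 was higher, 1 was lower and 4 did not pass, with a median log2 change of 0.16. These shares are below those over all genes tested (24.7% higher and 23.1% lower). Mapk7 was at 0.595 and 0.687 FPKM in 4-NP-treated cells and at 8.29 and 8.04 FPKM in control cells (log2 change -2.48 ± 0.14 SE, limma adjusted p = 0.00168). Map3k2 moved the other way, with 13.9 and 14.9 FPKM in 4-NP-treated cells against 4.87 and 4.43 FPKM in control cells, 3.10-fold higher. Map3k3 had a log2 change of 0.43 ± 0.12 (SE) and missed the threshold (limma adjusted p = 0.0570), and with libraries scaled to equal medians 3 genes of the route were higher.

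Klf10 and Klf11 are induced by TGF-beta through Smad proteins. Of 7 tested genes of this route 5 were lower and 0 were higher, against 23.1% lower among all genes tested, and the median log2 change was -1.14. The ligand Tgfb3 had 1.84 and 2.47 FPKM in 4-NP-treated cells and 31.7 and 30.7 FPKM in control cells, and the ligand Tgfb2 had 0.394 and 0.599 FPKM in 4-NP-treated cells against 9.33 and 11.9 FPKM in control cells. The receptor Tgfbr2 had 6.43 and 5.45 FPKM in 4-NP-treated cells and 18.4 and 21.6 FPKM in control cells. The log2 changes of these 3 genes were -3.36, -2.95 and -1.60. In the same libraries the myoid markers fell as given above, and their part in these values was not tested. The count of lower genes was 3 without 4-NP replicate 1, 4-NP replicate 2 or control replicate 1.

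Klf9 and Klf15 are targets of the glucocorticoid receptor. Of 5 tested genes that glucocorticoids also act on or through, 4 were lower and 0 were higher, against 23.1% lower among all genes tested, with a median log2 change of -1.33. Dusp1, a phosphatase that switches off MAP kinases, had 5.47 and 6.45 FPKM in 4-NP-treated cells and 29.2 and 26.1 FPKM in control cells. Hsd11b1, the enzyme that activates glucocorticoids inside cells, had 12.4 and 11.2 FPKM in 4-NP-treated cells and 28.7 and 29.7 FPKM in control cells. The kinase Sgk1 had 1.99 and 2.21 FPKM in 4-NP-treated cells and 6.62 and 6.98 FPKM in control cells. All 3 genes were called (log2 changes -2.04, -1.24 and -1.33), and in each the groups were well apart. The remaining lower gene was Tsc22d3 (log2 change -1.58), whose call was lost when either 4-NP replicate was left out. Fkbp5, also on this list, did not pass (log2 change 0.15, limma adjusted p = 0.780).

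KLF repressors act through corepressor complexes that hold histone deacetylases. Of 6 tested cofactor genes 3 were lower and 0 were higher, against 23.1% lower among all genes tested, and these 3 were the deacetylases. Hdac1 had 20.4 and 22.6 FPKM in 4-NP-treated cells and 40.5 and 47.8 FPKM in control cells (log2 change -1.001 ± 0.12 SE, limma adjusted p = 0.00664). Hdac2 and Hdac3 had log2 changes of -0.62 and -0.61, and without 4-NP replicate 1 or without control replicate 2 both lost their calls, which left 1 lower gene of 6, a share under that of all genes tested. Sin3a, Sin3b and the acetyltransferase gene Crebbp did not pass. Of 4 tested ubiquitin ligases tied to KLF turnover, 1 was lower (23.1% among all genes tested), Smurf1, with 11.1 and 11.8 FPKM in 4-NP-treated cells against 20.1 and 20.2 FPKM in control cells (log2 change -0.76).

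Genes known as KLF targets in other cell types were read next, and these lists overlap in part with the markers given above. In endothelial cells KLF2 and KLF4 induce Thbd, an anticoagulant receptor, and S1pr1, a receptor for a blood lipid. Both tested genes of this list were lower, against 23.1% of all genes tested: Thbd had 1.37 and 1.19 FPKM in 4-NP-treated cells and 21.3 and 20.2 FPKM in control cells, and S1pr1 had 0.545 and 0.805 FPKM in 4-NP-treated cells against 4.05 and 4.54 FPKM in control cells. Their log2 changes were -3.25 and -1.66. Ccl2, a chemokine that KLF2 and KLF4 repress there, had 71.5 and 76.8 FPKM in 4-NP-treated cells against 44.5 and 37.6 FPKM in control cells (log2 change 0.84). It was called higher, and the call was lost without 4-NP replicate 2. Edn1, the vessel-constricting peptide endothelin and on the same list, was listed at 0 in both 4-NP libraries and at 13.3 and 12.4 FPKM in control libraries.

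In smooth muscle, KLF4 represses contractile genes. Of 6 tested genes of this list 5 were lower in 4-NP-treated cells and 0 were higher, against 23.1% lower among all genes tested, with a median log2 change of -4.79. Myl9, a myosin light chain, had 20.8 and 21.8 FPKM in 4-NP-treated cells and 716 and 762 FPKM in control cells. The actin-binding gene Cnn1 had 4.69 and 5.17 FPKM in 4-NP-treated cells and 142 and 157 FPKM in control cells. The actin-binding gene Tagln had 426 and 412 FPKM in 4-NP-treated cells and 3968 and 3901 FPKM in control cells. All 5 lower genes (these 3, Acta2 and Myh11) are also on the list of myoid markers, so this count and that of the myoid markers rest on the same values.

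Genes that KLF6 induces in liver stellate and endothelial cells were lower in 4 of 5 tested cases, against 23.1% of all genes tested, with a median log2 change of -1.60. Col1a1, a fibrillar collagen, had 104 and 118 FPKM in 4-NP-treated cells and 443 and 472 FPKM in control cells. Eng, a TGF-beta co-receptor, had a log2 change of -1.54. Plau, a protease, was listed at 0 in both 4-NP libraries and at 4.53 and 5.99 FPKM in control libraries. The remaining lower gene was Tgfbr2, and Tgfbr1 did not pass. Both were also counted on the TGF-beta route above, so these counts are not separate. Of 2 tested KLF15 targets 1 was higher, against 24.7% higher among all genes tested. This was Bcat2, which breaks down branched-chain amino acids. It had 52.9 and 47.4 FPKM in 4-NP-treated cells against 27.1 and 27.3 FPKM in control cells (log2 change 0.86). The glucose transporter Slc2a4 did not pass (log2 change -1.11, limma adjusted p = 0.208).

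Among targets by which KLF4, KLF5 and KLF6 act on growth, 2 of 3 tested genes were lower, against 23.1% of all genes tested. This list is not sorted by the direction of KLF action, so the count has no single reading. Ccnb1, a cyclin that drives mitosis, had 5.71 and 6.81 FPKM in 4-NP-treated cells and 27.7 and 31.4 FPKM in control cells (log2 change -2.07). Ccnd1, a cyclin of early cell cycle, had 0.694 and 0.439 FPKM in 4-NP-treated cells and 7.89 and 7.02 FPKM in control cells (log2 change -2.44). Cdkn1a, the cycle inhibitor that KLF4 induces in epithelia, had 8.41 and 16.9 FPKM in 4-NP-treated cells and 3.67 and 6.50 FPKM in control cells. Its groups did not overlap, but each was widely spread, and the log2 change of 1.13 ± 0.43 (SE) missed the threshold (limma adjusted p = 0.107).

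**Figure D4:**
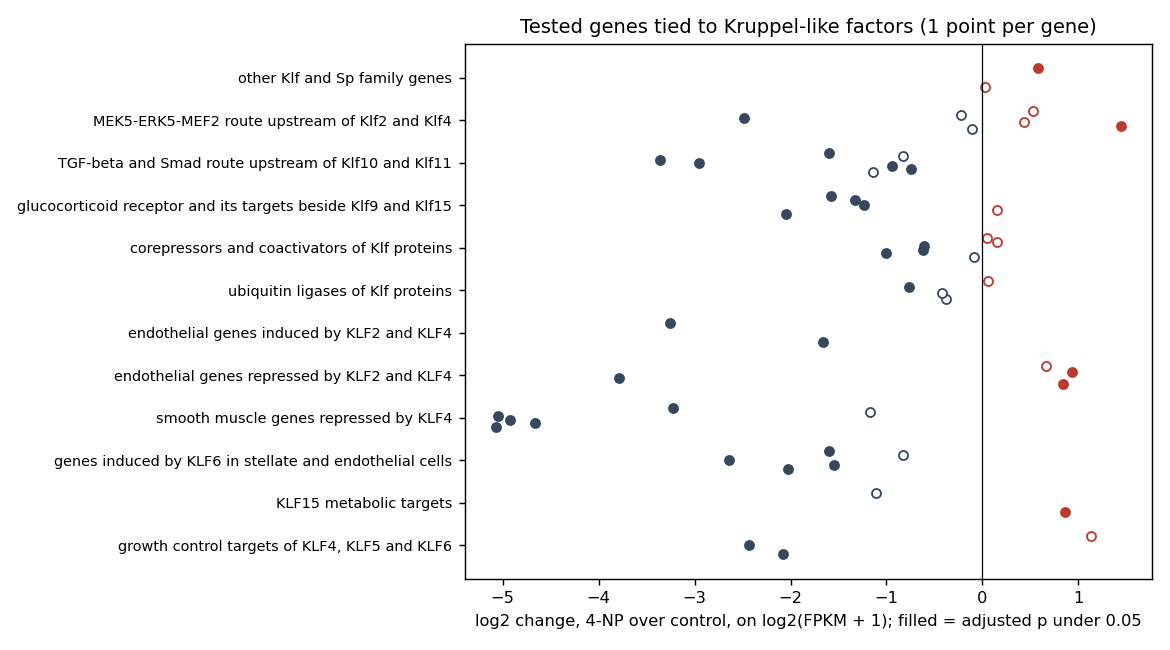
Log2 change of 4-NP over control on the log2(FPKM + 1) scale for each tested gene of the 12 lists tied to KLFs, 1 point per gene, filled where the adjusted p was under 0.05 (Tgfbr1 and Tgfbr2 are on 2 lists). The smooth muscle genes lie farthest to the left, with a median of -4.79, and the highest point is Map3k2 at 1.45.

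The genes closest in pattern to the extreme members were found by distance over the 4 libraries, after each gene's mean log2(FPKM + 1) was subtracted. Nearest to Klf4 were Bet1 and Copb1, which serve transport between the endoplasmic reticulum and the Golgi, and Eif2s1, the alpha subunit of the initiation factor eIF2, at distances of 0.02, 0.03 and 0.03. Bet1 had 65.9 and 73.6 FPKM in 4-NP-treated cells and 27.5 and 29.0 FPKM in control cells. Nearest to Klf10 were Ugdh, which makes a sugar precursor of matrix glycans, Mad1l1, a mitotic checkpoint gene, and Tmem110, at distances of 0.04, 0.04 and 0.05. Ugdh had 45.9 and 51.2 FPKM in 4-NP-treated cells and 118 and 122 FPKM in control cells. With only 4 libraries, many genes share such a pattern, and nothing follows from it about function or control.

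No transcript of the 265 lncRNAs in the deposited lncRNA table overlapped any of the 7 gene loci, and none was named for one of these genes.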

How the data were processed

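Total RNA freed of ribosomal RNA was sequenced from 2 4-NP-treated and 2 control libraries, grouped by their titles. The columns named NP were matched to the treated titles. HISAT2 and DESeq2 are named in the submitters' processing notes and edgeR in the study. The sources used here give no versions, assembler or build. The authors deposited FPKM per transcript for mRNAs and lncRNAs, and for circRNAs read counts with a signal scaled to mapped reads, used here only for the depth. Their fold ratios, log2 ratios, p-values and q-values were not used.

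Of 17290 mRNA rows, 1545 repeated a transcript name and were dropped, and FPKM was summed per gene name. The lncRNA and circRNA tables hold only selected entries. FPKM did not fall on whole reads, so no count test was run. In R 4.3.3, limma 3.58.1 (two-sided, with trend and no covariate) was fitted to log2(FPKM + 1) of the whole table, with a pseudocount of 1. The test was first tried on simulated data with 200 genes changed and noise set by level alone. In the real libraries 3831 genes were called, so that trial does not show how the test behaves on them. An exact permutation test of 2 against 2 cannot go below p = 0.333, so none was used. Alternatives were the scaling, pseudocount, filter, variance model, transcripts in place of genes, repeated rows, threshold, a replicate block and leaving out each library.

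The members, gene lists and tests were chosen with earlier results of these data known. Named were all members, up to 3 genes of smallest p per list, and the 3 genes nearest in pattern to the highest and the lowest member. Further genes are named where a count turns on them, after their values were seen. The values of 1 listed gene are not reported here. Python 3.11.15 with pandas 2.3.3 was used for the other steps.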

Additional observations from a re-analysis of the deposited data

How the results depend on the processing

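Klf4 stayed higher (log2 change 1.21 to 1.47) and Klf10 lower (-1.47 to -1.10) and both were called under all 17 alternatives, with adjusted p of 0.00231 to 0.0332 and 0.00364 to 0.0362. Klf9 stayed between -0.92 and -0.65 and was called in 16, but not with an unadjusted p and a log2 change beyond 1, where 1 member was lower. Klf5 ranged over -1.14 to -0.48 and passed at -0.66 with equal totals, at -0.62 without the trend and at -0.76 without control replicate 1. Klf11 passed under none (adjusted p 0.0705 to 0.262). Of these alternatives only the scaling, the pseudocount and leaving out 1 library could move the log2 change of a member. The others alter the test, the threshold or the set of genes fitted. Each member has 1 transcript, so transcripts in place of genes and repeated rows left its values as they were. Klf16 turned to -0.031 with equal totals, and leaving out 1 library gave it -0.051 (without control replicate 2) to 0.12.

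Over all genes 1981 were higher and 1850 lower. Scaling to equal medians gave 2576 higher and 1571 lower and moved the median log2 change of all genes to 0.22, which bears on every change given. An adjusted p under 0.01 gave 1077 and 1084, an unadjusted p with a change beyond 1 gave 914 and 1218, and a filter at 5 FPKM left 1158 lower. Leaving out 1 library gave 1134 to 1518 higher and 1270 to 1356 lower genes, with fewer samples to fit. Deviations of same-numbered libraries did not correlate over all tested genes (r = -0.01). This cannot show whether same-numbered libraries were made together, which the labels do not say. With a replicate block 1684 genes were higher and 1532 lower, and 1 member was higher and 2 lower. Under this block Cdkn1a, Slc2a4 and Tgfbr1 passed (adjusted p 0.0242, 0.0382 and 0.0443) and Smad7 did not (0.0672), so that 5 of 5 tested KLF6-induced genes were lower. FPKM hold no read counts, so no counting interval can be given for low genes such as Klf3 and Klf13.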

Other observations

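Among Klf and Sp genes under the filter, Sp4 had the same library standing out as Klf3, with 0.563 and 2.09 FPKM in 4-NP libraries and 0.149 and 0.00183 FPKM in control libraries. Both genes were singled out after their values were seen, and both were highest in 4-NP library 2. Klf12 had 0.237 and 0.283 FPKM in 4-NP libraries and 0.733 and 1.08 FPKM in control libraries. Klf12 was under the filter, and in the fit without it the log2 change was -0.59 (limma adjusted p = 0.0415), a lower call. For Sp4 that fit gave 1.03 (limma adjusted p = 0.133).

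The lncRNA nearest to any of the 7 genes was MSTRG.20678.1, which lay 103786 bases from Klf11. It had 0.235 and 0.237 FPKM in 4-NP libraries and 6.22 and 5.51 FPKM in control libraries. It was singled out after its values were seen, and its table holds only entries selected as changed, so the difference was not tested.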
